A study of Mus musculus with 12 samples.

Results

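Described here are 7 transcripts of the complement system, C1qa, C1qb, C1qc, C2, C3, C4b and Cfb, chosen by their gene symbols from the 23337 symbols that both deposited count tables list. All 7 were present in both tables and passed the filter on low counts in each of the fits. RNA came from urothelium peeled off its underlying tissue in Stag2-WT and Stag2-KO mice. Animals of both genotypes ate TMX-containing food (TMX is taken to be tamoxifen, which switches on inducible Cre enzymes) for a week and were killed 1 week or 1 month after its start, with 3 libraries in each of the 4 groups. Stag2 codes for a component of cohesin, which forms chromatin loops and joins sister chromatids. The labels used here name no strain, age, sex, Cre driver or deleted exon, so which cells could lose Stag2 cannot be stated. Each library carries an identifier of its own, but nothing states that these are separate animals, so the p-values measure the spread between these libraries, which may be technical.

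Complement is a cascade of plasma and tissue proteins that tags cells and microbes for removal. C1q, a hexamer built from A, B and C chains (C1qa, C1qb, C1qc), recognises targets and starts the classical pathway, in which C4 (C4b) and C2 form the enzyme that cleaves C3. Factor B (Cfb) is the counterpart of C2 in the alternative pathway, which amplifies C3 cleavage. In most tissues C1q chains are made by macrophages and related myeloid cells, whereas C3, C4, C2 and factor B are also made by epithelial cells and fibroblasts. All 3 C1q chains are needed for the assembled protein.

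The C1q genes lie side by side on the minus strand of chromosome 4 in GRCm38, the assembly also called mm10, which the submitters' processing notes name. C1qb spans chr4:136880129-136886187, C1qc chr4:136889804-136893065 and C1qa chr4:136895917-136898803. The gaps between them are 3616 and 2851 bp, and each gene has 3 exons. The other members are on chromosome 17, all on the minus strand. Cfb (chr17:34856374-34862518) and C2 (chr17:34862604-34898265) are 85 bp apart, C4b lies at chr17:34728380-34743882, and C3 at chr17:57203970-57228136. A read-through gene, Gm20547, overlaps both Cfb and C2 in GENCODE M21 and has no entry in the count tables. C4b has a close copy, C4a: of 499 aligned bases at the 3′ ends of their transcripts, 489 were identical (98.0%). C4a had at most 8 counts in any library, and how its reads were divided from those of C4b is not known, so values of C4b are uncertain in that respect.

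Promoter sequence is shown for C1qb and C1qc because the first passed the test at 1 month and its neighbour did not, and for C3 as a member on another chromosome. The RefSeq promoter table (GRCm38.p6) held these 3 of the 7 members. Each line runs 5′ to 3′ on the minus strand and is taken from the 250 bases before the RefSeq start. The C1qc line stops after 99 bases, where the first exon of the longer GENCODE transcript begins. Capitals mark matches on either strand to 6 motifs: the PU.1 core GAGGAA, the MAF half-site TGCTGA, the C/EBP motif TTGCNNAA, the interferon element GAAANNGAA, the STAT motif TTCNNNGAA and the NF-kB motif GGGANTTTC. No matches overlapped.
C1qb, chr4:136886201-136886450: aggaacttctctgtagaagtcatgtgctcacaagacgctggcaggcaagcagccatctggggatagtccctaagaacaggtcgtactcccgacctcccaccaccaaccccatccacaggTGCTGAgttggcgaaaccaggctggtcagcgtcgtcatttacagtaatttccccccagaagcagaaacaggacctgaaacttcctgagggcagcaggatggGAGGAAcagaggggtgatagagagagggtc
C1qc, chr4:136893066-136893164: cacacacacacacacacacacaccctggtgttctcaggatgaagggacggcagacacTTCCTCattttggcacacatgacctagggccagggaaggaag
C3, chr17:57228137-57228386: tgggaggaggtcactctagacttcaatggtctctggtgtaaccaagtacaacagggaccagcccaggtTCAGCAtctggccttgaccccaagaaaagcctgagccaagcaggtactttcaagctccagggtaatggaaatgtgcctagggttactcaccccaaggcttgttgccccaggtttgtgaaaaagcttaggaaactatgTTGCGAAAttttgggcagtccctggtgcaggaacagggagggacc

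C1qb held a PU.1 core that begins 30 bases before the start and a MAF half-site 131 bases before it. PU.1 is a transcription factor of macrophages. Over its 250 bases C1qc held a PU.1 core alone, on the opposite strand 193 bases before the start. C3 held a MAF half-site at 182 bases and a C/EBP motif at 45 bases. Over all 32851 promoter windows of this length, 23.3% held the PU.1 core, 16.1% the MAF half-site, 9.56% the C/EBP motif, 7.13% the interferon element, 7.02% the STAT motif and 0.941% the NF-kB motif. A match is a description of these letters only.

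Total counts ranged from 5580961 to 9497088 per library. Stag2 itself was lower in every KO library than in every WT library of its time, with means of 129.9 ± 28.8 (WT) and 67.0 ± 8.27 CPM (KO; SD, n = 3 here and below) at 1 week and of 55.1 ± 7.70 and 31.8 ± 10.4 CPM at 1 month. The difference had an edgeR adjusted p of 0.198 at 1 week and 0.0507 at 1 month. CPM are counts scaled to a common library size after TMM normalization. KO replicate 3 of 1 week stood apart, with Spearman correlations of at most 0.842 across 13122 genes with the other libraries of its time. All 3 KO libraries of 1 week and KO replicate 3 of 1 month carried Xist, at 1123 to 1374 CPM, and had at most 2 counts of each of the Y-linked genes Ddx3y, Eif2s3y, Kdm5d and Uty. The other 8 libraries had at most 3.49 CPM of Xist and carried these Y-linked transcripts. At 1 week the genotype and the state of these sex-linked transcripts therefore cannot be told apart, for any gene. All libraries of 1 week belong to batch 1, and those of 1 month to batch 2 (replicates 1 and 2) or batch 3 (replicate 3). Time and batch therefore cannot be told apart either, and levels were not tested between times. Within batch 3 the KO library carried Xist and the WT library Y-linked transcripts. A difference between genotypes within batch 3 therefore cannot be told apart from the sex-linked transcripts, for any gene.

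At 1 week, all 7 members had a higher fitted level in the KO than in the WT libraries, and none passed the test over all genes. The 2 members furthest apart were C1qa, at 31.6 ± 12.3 CPM in WT and 122.5 ± 72.6 CPM in KO, and C4b, at 21.6 ± 2.21 and 65.4 ± 32.9 CPM. Changes are given as fitted log2 ratios of KO to WT, positive where KO is higher. By edgeR's quasi-likelihood test with Benjamini-Hochberg adjustment, 0 of 7 passed an adjusted p of 0.05, where 0.0627% of the 12754 genes tested did. Those that passed were 8 genes, among them Xist and the 4 Y-linked genes named above. At an unadjusted p of 0.05, 5 of 7 were higher in KO, against 10.5% of all genes. DESeq2 called C1qa and C4b, where it called 6.1% of all genes. In bulk RNA, fewer cells of a type and less RNA per cell cannot be told apart, which holds for every level given here.

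At 1 week C1qa, the A chain, had 45.3, 21.4 and 28.2 CPM in the WT libraries and 75.4, 85.9 and 206 CPM in the KO libraries. Every KO library was above every WT library, and replicate 3, the library that stood apart, was far above the other KO libraries. The log2 ratio of C1qa was 2.03 (standard error 0.51, adjusted p 0.144), and 1.35 without KO replicate 3. C1qb, the B chain, had 30.1, 20.1 and 13.3 CPM in WT, against 33.4, 51.4 and 38.1 CPM in KO, so the groups again did not overlap, though the gap between them was small. Its log2 ratio was 1.01 (standard error 0.39, adjusted p 0.282). C1qc, the C chain, had 16.1, 13.2 and 6.31 CPM in WT, against 8.75, 38.7 and 2.89 CPM in KO. The highest and the lowest of these 6 values were both KO libraries, so the groups overlapped fully, and the log2 ratio of 0.56 (standard error 0.86, adjusted p 0.767) became -1.01 without KO replicate 2.

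C4b, the component that C1 cleaves, had 23.4, 22.2 and 19.2 CPM in the WT libraries and 66.9, 97.5 and 31.8 CPM in the KO libraries of 1 week. The WT libraries were close together and all KO libraries were above them, with a log2 ratio of 1.65 (standard error 0.42, edgeR adjusted p 0.149). Without KO replicate 3, which had the lowest C4b of the KO libraries, it was 1.93 and passed the test (adjusted p 0.0188), as 2.45% of all genes then did. C2, the protease that joins C4, had 8.71, 7.68 and 5.44 CPM in WT, against 20.2, 12.6 and 3.47 CPM in KO. KO replicate 3 was below all WT libraries and the other KO libraries were above them, and the log2 ratio was 0.78 (standard error 0.60, adjusted p 0.554).

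C3, on which all pathways converge, had 22.6, 12.8 and 9.80 CPM in WT, against 31.1, 21.5 and 44.1 CPM in KO at 1 week. KO replicate 2 lay just below the highest WT library, and the log2 ratio was 1.16 (standard error 0.44, edgeR adjusted p 0.283). Cfb, the protease of the alternative pathway, had 24.1, 19.0 and 15.1 CPM in WT, against 24.4, 47.6 and 41.0 CPM in KO. Its groups did not overlap, but KO replicate 1 exceeded the highest WT library by little, and the log2 ratio was 1.02 (standard error 0.37, adjusted p 0.257). For 4 of the 7 members (C1qa, C1qb, C4b and Cfb) every KO library was above every WT library, as for 12.4% of all genes tested.

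**Figure D1:**
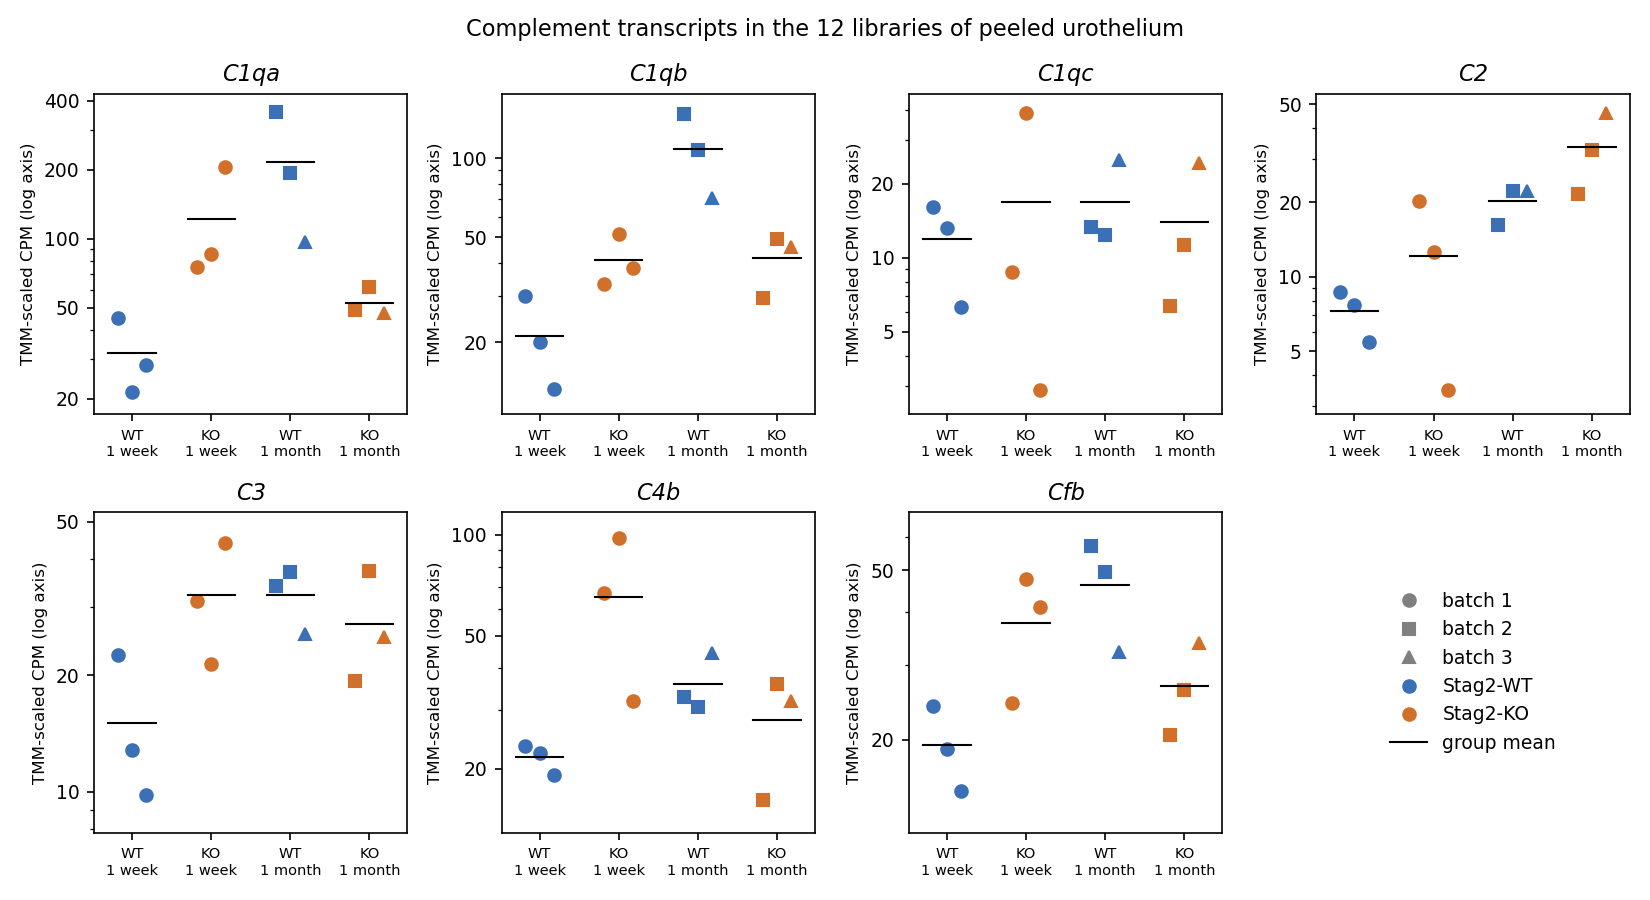
TMM-scaled CPM (log axis, with its own range in each panel) of the 7 members in each of the 12 libraries, by genotype and time, with symbols for the sequencing batch and a line at each group mean (n = 3). C1qa and C1qb were higher in all KO libraries at 1 week and lower in all KO libraries at 1 month, while the C1qc groups overlapped at both times.

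At 1 month, C1qa and C1qb fell in the KO libraries, and the other 5 members did not pass the test. C1qa was 3.86-fold lower in KO, with 217 ± 133 CPM in WT and 52.7 ± 7.85 CPM in KO, and C1qb was 2.61-fold lower, with 108 ± 38.3 and 41.6 ± 10.7 CPM. These 2 of 7 members were called lower by edgeR's test with batch as a covariate, where 1.22% of the 12139 genes tested were called lower and 2.22% were called in either direction. They were also the only members for which every KO library was below every WT library, as for 6.45% of all genes tested. Without the batch covariate 0 of the 7 were called, as 0 of all genes were. Leaving out KO replicate 1 or KO replicate 2 gave 0 called members, where 63 of 12455 and 84 of 12460 genes were called. Leaving out WT replicate 1 or WT replicate 2 gave C1qa alone, where 83 of 12493 and 45 of 12466 genes were called. With all 6 libraries 269 of the 12139 genes were called, so calls were fewer over all genes in each of these fits. Leaving out WT replicate 3 or KO replicate 3, the libraries of batch 3, gave 3 (C1qa, C1qb and Cfb), where 12.3% of all genes were called in either case. With either left out, the other has no partner in its batch. Both fits therefore take the genotype effect from batch 2 alone and are not separate checks.

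C1qa had 359, 194 and 97.3 CPM in the WT libraries of 1 month and 48.7, 61.7 and 47.6 CPM in the KO libraries. The KO libraries were close together, whereas the WT libraries spread over a wide range, with the batch 3 library lowest. The log2 ratio was -1.95 (standard error 0.31, edgeR adjusted p 0.0121). The difference was -2.26 within batch 2 and -1.03 within batch 3, which holds a single library of each genotype, the KO library with Xist. Without KO replicate 1 the log2 ratio was -1.67 (adjusted p 0.0733) and without KO replicate 2 it was -1.89 (adjusted p 0.0676). Without KO replicate 3, the library with Xist, it was -2.37 (adjusted p 0.000238). That value comes from batch 2 alone, since WT replicate 3 then had no partner in its batch.

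C1qb had 147, 107 and 70.4 CPM in WT, against 29.4, 49.3 and 46.0 CPM in KO at 1 month. Its WT libraries kept the same order as for C1qa, and the gap to the KO libraries was narrower. The log2 ratio was -1.38 (standard error 0.28, edgeR adjusted p 0.0302), with -1.71 within batch 2 and -0.61 within batch 3. Leaving out WT replicate 1 (edgeR adjusted p 0.0825), WT replicate 2 (0.102), KO replicate 1 (0.0977) or KO replicate 2 (0.0893) ended the call. Those fits called 45 to 84 genes in all, against 269 with every library kept.

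C1qc, which lies between them on the chromosome, had 13.3, 12.4 and 25.0 CPM in WT, against 6.36, 11.3 and 24.4 CPM in KO at 1 month. Here the batch 3 libraries were the highest of both genotypes and nearly equal to each other. The log2 ratio was -0.41 (standard error 0.29, edgeR adjusted p 0.422), with -0.58 within batch 2 and -0.04 within batch 3.

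Of the remaining members, C2 was the one with a positive log2 ratio at 1 month. C2 had 16.2, 22.2 and 22.3 CPM in WT, against 21.7, 32.7 and 46.0 CPM in KO, and its log2 ratio was 0.63 (standard error 0.26, edgeR adjusted p 0.187). The groups overlapped through KO replicate 1, and the difference was 0.48 within batch 2 and 1.04 within batch 3. Cfb, the neighbour of C2, had 57.1, 49.6 and 32.2 CPM in WT, against 20.6, 26.1 and 33.7 CPM in KO. The batch 2 libraries of Cfb separated by genotype, with a difference of -1.19, and the batch 3 libraries did not, with 0.07. Its log2 ratio was -0.82 (standard error 0.28, adjusted p 0.120) in the fit of all 6 libraries and -1.24 (adjusted p 0.00682) in batch 2 alone, where 12.2% of all genes were called. As a ratio of counts, C2 over Cfb was 0.284 to 0.692 in the WT libraries and 1.05 to 1.37 in the KO libraries of 1 month, and at 1 week 0.360 to 0.404 in WT and 0.0845 to 0.829 in KO.

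C3 and C4b overlapped between the genotypes at 1 month. C3 had 34.0, 37.1 and 25.6 CPM in WT, against 19.3, 37.2 and 25.1 CPM in KO, with a log2 ratio of -0.28 (standard error 0.26, edgeR adjusted p 0.556). The highest and the lowest C3 values were both in KO libraries. C4b had 32.9, 30.6 and 44.2 CPM in WT, against 16.1, 35.8 and 31.8 CPM in KO, with a log2 ratio of -0.41 (standard error 0.28, adjusted p 0.418), and KO replicate 1 alone was below the WT range.

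**Figure D2:**
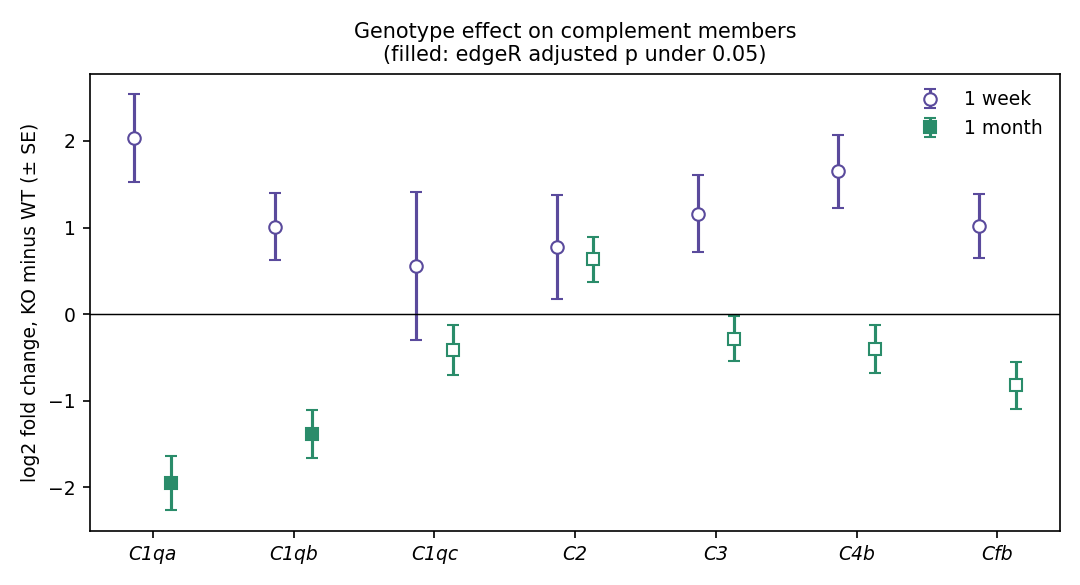
Log2 ratio between KO and WT (positive where KO is higher) with its standard error for the 7 members at 1 week (circles) and 1 month (squares), 3 libraries per group; filled symbols passed an edgeR adjusted p of 0.05. C1qa and C1qb at 1 month, at -1.95 and -1.38, are the filled symbols, and all 7 values at 1 week are above 0.

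A change of the KO to WT ratio between 1 week and 1 month was tested by an interaction term fitted over the 12 libraries. The ratio of 1 week enters this term, and there genotype cannot be told apart from the sex-linked transcripts. The difference in log2 ratio (1 month minus 1 week) was -3.97 (standard error 0.69, edgeR adjusted p 0.0879) for C1qa and -2.39 (standard error 0.54, adjusted p 0.104) for C1qb. It was -2.04 (standard error 0.55, adjusted p 0.111) for C4b and -1.84 (standard error 0.51, adjusted p 0.119) for Cfb. C3 differed by -1.42 (standard error 0.56), C1qc by -0.98 (standard error 1.00) and C2 by -0.13 (standard error 0.68), with adjusted p between 0.200 and 0.928. Thus 0 of 7 members passed, as 0% of the 13122 genes did, while 5 of 7 had an unadjusted p under 0.05 with the lower effect at 1 month, against 12% of all genes. DESeq2 called 4 of the 7 in this comparison, C1qa, C1qb, C4b and Cfb, and 5.87% of all genes. Without KO replicate 3 of 1 week edgeR called C1qa, C1qb and C4b and 2.32% of all genes. It called C1qa alone of the members without KO replicate 1 (1.61% of all genes) or KO replicate 2 (3.29%) of 1 week.

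The order of the group means was not the same for all members, but WT at 1 week had the lowest mean for every member. For C1qa the group means, from low to high, were those of WT at 1 week, KO at 1 month (52.7 CPM), KO at 1 week and WT at 1 month. The ranges of neighbouring groups did not overlap, except for KO at 1 week (75.4 to 206 CPM) and WT at 1 month (97.3 to 359 CPM). C1qb was lowest in WT at 1 week (21.1 CPM) and highest in WT at 1 month, and its KO groups between them, at 41.0 and 41.6 CPM, overlapped. The means of C1qc, in the same order as those of C1qa, lay between 11.9 and 16.9 CPM. Those of C3 lay between 15.1 and 32.2 CPM, and both genes had overlap between each pair of neighbours. C2 was lowest in WT (7.28 CPM) and KO (12.1 CPM) of 1 week and highest in KO of 1 month (33.5 CPM). C4b was highest in KO of 1 week (65.4 CPM), a group that overlapped with both groups of 1 month. Cfb had the order of C1qa, from WT at 1 week (19.4 CPM) through KO at 1 month (26.8 CPM) and KO at 1 week (37.7 CPM) to WT at 1 month (46.3 CPM). Steps that join the times also join batches, and no test was made of them.

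Since C1q needs its 3 chains together, their counts were compared within each library. C1qa made up 39.2% to 83.4% of the C1q counts, and C1qc 1.17% to 24.1%. The ratio of C1qa to C1qc counts was 2.82, 1.63 and 4.47 in the WT libraries of 1 week, and 8.62, 2.22 and 71.3 in the KO libraries. The value of KO replicate 3 thus stood far from all others, with 1070 counts of C1qa and 15 of C1qc. At 1 month the ratio was 27.0, 15.6 and 3.89 in WT and 7.67, 5.48 and 1.96 in KO, and in both genotypes the batch 3 library had the lowest. Within batch 2 the WT libraries had the higher ratios, and within batch 3 the WT library did too. The ratio of C1qa to C1qb varied less, from 1.03 to 5.40, and was above 2.44 in KO replicate 3 of 1 week alone. The ratios of the chains thus differed between libraries, also within a group, and the cause was not tested.

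**Figure D3:**
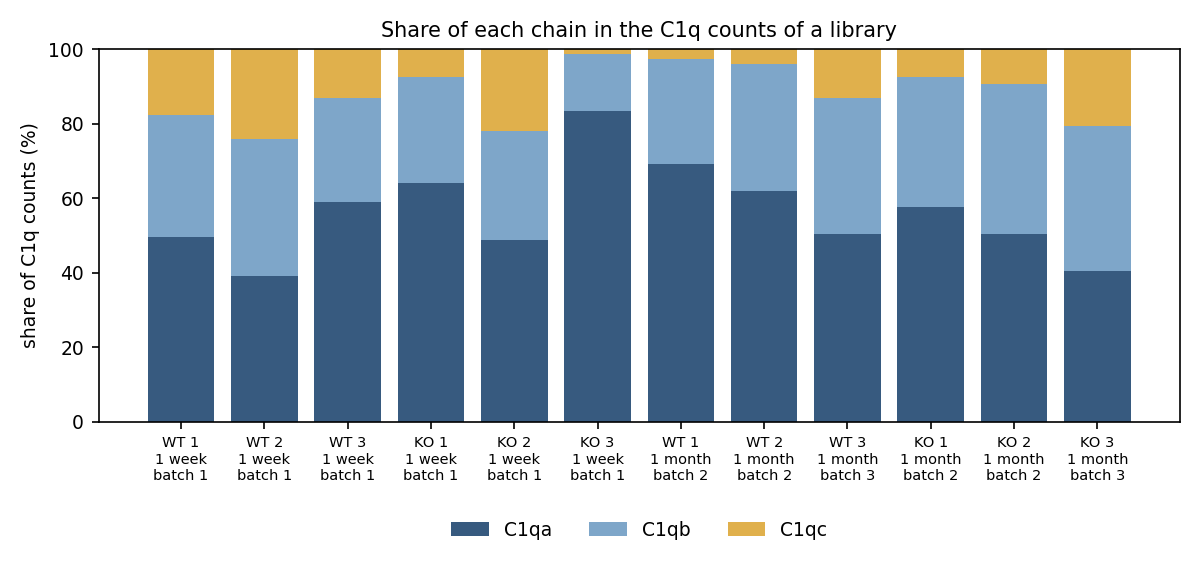
Share (%) of C1qa, C1qb and C1qc in the summed C1q counts of each of the 12 libraries, with genotype, time and sequencing batch under each bar. The C1qc share was 1.17% in KO replicate 3 of 1 week, 2.56% and 3.95% in the WT libraries of batch 2, and between 7.45% and 24.1% in the other libraries.

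Macrophage markers had the same sign as C1qa and C1qb at both times for most of the list. Of 22 markers, 19 were tested at each time. At 1 week 17 had a positive log2 ratio (median 0.68, against 0.02 over all genes). By edgeR 0 were called, against 0.0627% of all genes, and 5 were higher at an unadjusted p under 0.05, against 10.5%. At 1 month 17 had a negative log2 ratio (median -0.90, against -0.01 over all genes). There 1 was called, against 2.22% of all genes, and 12 were lower at an unadjusted p under 0.05, against 10.3%. Their summed level was 307.5 to 423 CPM in WT and 450 to 702 CPM in KO at 1 week, and 559 to 766 CPM in WT and 306 to 453 CPM in KO at 1 month, so the groups did not overlap at either time. At 1 month 8 of the 19 had every KO library below every WT library, as did 6.45% of all genes. The called gene was Csf1r, the receptor for the growth factor that macrophages depend on, which had 310 ± 98.9 CPM in WT, against 142 ± 21.5 CPM in KO (log2 ratio -1.13, SE 0.26, edgeR adjusted p 0.0429). For Csf1r the difference was -1.49 within batch 2 and -0.26 within batch 3. The log2 ratio of Ctss, a lysosomal protease, was -0.83 (standard error 0.29, edgeR adjusted p 0.125). Of the defining markers, Emr1 (F4/80, now Adgre1) had 1 to 53 counts per library and Cd68 0 to 31, and no marker of the list was at 0 in all libraries. The part of macrophage number in the C1q difference was not tested.

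The ratio of C1qa to Csf1r counts was 0.814 to 0.862 in WT and 0.962 to 1.25 in KO at 1 week, without overlap. At 1 month it was 1.01, 0.516 and 0.496 in WT and 0.348, 0.511 and 0.291 in KO, where KO replicate 2 lay within the WT range. The markers did not move as a block in KO replicate 3 of 1 week. There C1qa, Csf1r and Cd163 (80.7 CPM), a scavenger receptor, were at their highest level of 1 week, while C1qc, Pf4 (1.54 CPM), Tyrobp (1.73 CPM) and Emr1 (0.193 CPM) were at their lowest.

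**Figure D4:**
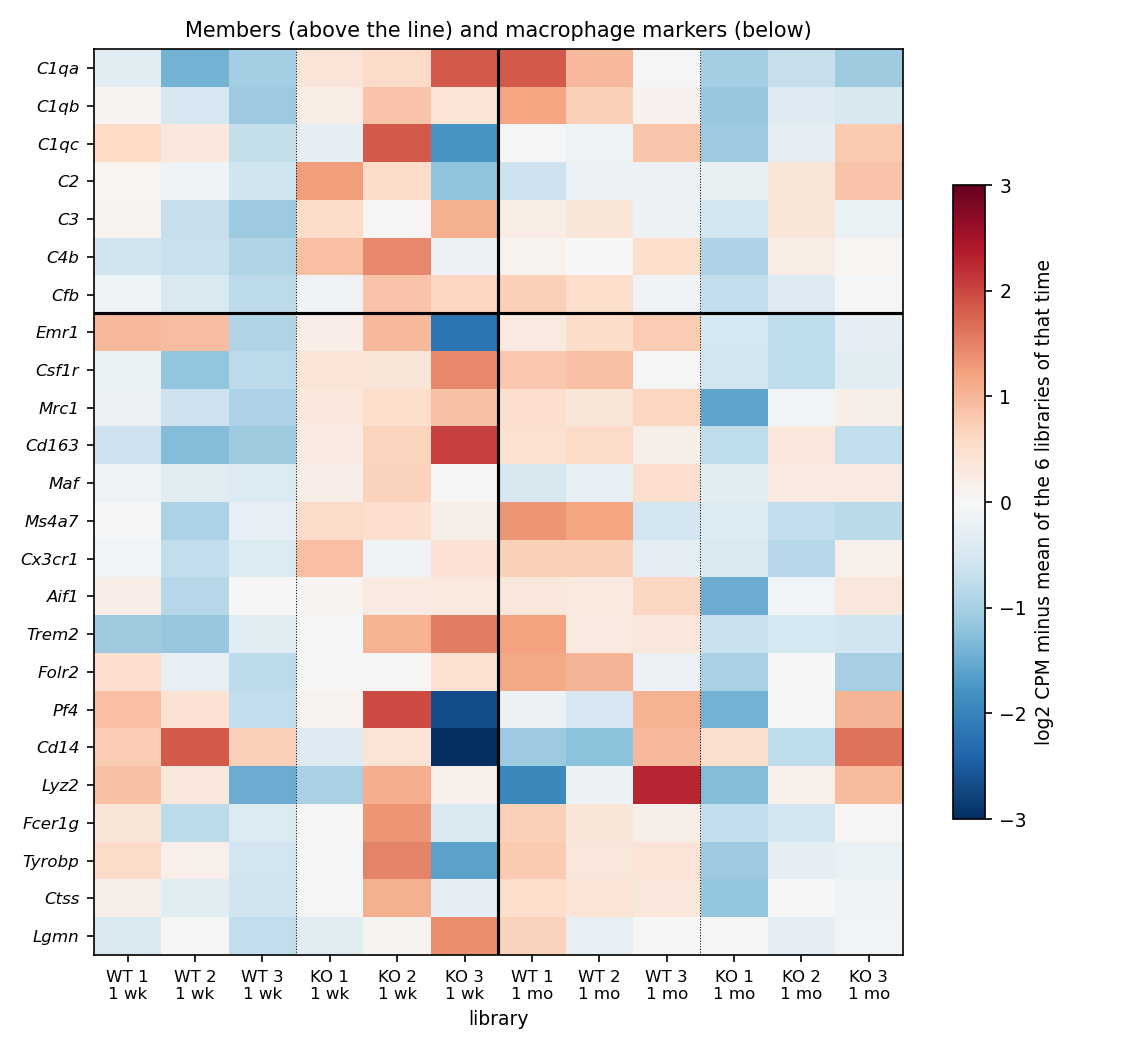
Log2 CPM of the 7 members (above the line) and of macrophage markers tested at both times (below it, 1 of them not shown) in each library, minus the mean of the 6 libraries of that time; red is above and blue below that mean, and the scale ends at 3 in either direction. At 1 month C1qa and C1qb are blue in all KO libraries, and most markers are blue in KO replicates 1 and 2. In KO replicate 3 of 1 month the markers are mixed, with Cd163 (-0.73) blue and Cd14 (1.64) red. In KO replicate 3 of 1 week C1qa and Cd163 are red where C1qc, Pf4 and Cd14 are blue.

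Markers of other cell types were summarised beside these values, and their part was not tested. Over all genes, edgeR called 0.0627% at 1 week and 2.22% at 1 month. Of 11 dendritic cell and MHC class II genes, 7 were tested and 2 fell at 1 month, Cd74 (-1.76, edgeR adjusted p 0.00344) and H2-Ab1 (-1.10, adjusted p 0.0420), with 0 called at 1 week. All 10 fibroblast genes had positive log2 ratios at 1 week (median 1.16, 0 called), where their summed level was 3733 to 5659 CPM in WT and 4644 to 10100 CPM in KO. At 1 month their median was -0.10 and Pdgfrb rose by 1.30 (adjusted p 0.0218). The 6 endothelial genes had a median of 1.01 at 1 week and 0.50 at 1 month with 0 called, and their sums did not overlap at either time (174 to 198 CPM in WT and 287 to 493 CPM in KO, then 171.5 to 199 and 215.5 to 379 CPM). The 6 smooth muscle genes had medians of 1.51 and -0.22, with 0 called. At an unadjusted p under 0.05 in edgeR, 6 of 10 fibroblast, 3 of 6 endothelial and 3 of 6 smooth muscle genes were higher at 1 week. The share over all genes was 10.5%, and in the dendritic cell and urothelial lists 0 were higher by that measure. Lymphocyte markers were near the floor of detection, with a sum of 3.56 to 15.1 CPM and 2 of 12 tested, and of the neutrophil markers 3 of 6 were tested at 1 week and 2 at 1 month, with 0 called in either list. Of 4 mesothelial markers only Upk3b, which urothelium also expresses, was tested. The 17 urothelial genes, all tested, had medians of -0.26 and -0.37, and Krt20, a keratin of umbrella cells, fell at 1 month (-1.76, adjusted p 0.00601).

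Other genes of the complement system were read from the same fits: of 50 found in the tables, 24 were tested at 1 week and 25 at 1 month. At 1 week 20 of 24 had a positive log2 ratio (median 0.70), as 6565 of all 12754 genes did. By edgeR 0 were called, against 0.0627% of all genes, and 5 were higher at an unadjusted p under 0.05, against 10.5%. DESeq2 called 2, among them Fcna, and 6.1% of all genes. At 1 month 3 of 25 were called, Colec11 and Serping1 higher and Clu lower, where edgeR called 2.22% of all genes. The median was -0.11, and 9 were positive. At an unadjusted p under 0.05, 4 were higher, against 11.1% of all genes, and 8 lower, against 10.3%.

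Among the initiators of the cascade, Colec11, a lectin that starts the lectin pathway, rose at 1 month from 1.21 ± 0.0279 to 8.22 ± 0.576 CPM, a log2 ratio of 2.70 (standard error 0.42, edgeR adjusted p 0.00980). All KO libraries were above the WT libraries, and the difference was 2.48 within batch 2 and 2.59 within batch 3. Fcna, ficolin A, another lectin made by macrophages, had 5.28, 4.36 and 4.90 CPM in WT, against 14.8, 31.0 and 65.5 CPM in KO at 1 week, with a log2 ratio of 3.01 (standard error 0.58, adjusted p 0.109). At 1 month the value of Fcna was -0.08. C1ra and C1s, the proteases of the C1 complex, had values of 0.40 and 0.31 at 1 week and of -0.07 and 0.40 at 1 month, with adjusted p of at least 0.277. Masp1, Mbl1, Mbl2, Fcnb and C1rb had at most 3 counts in any library.

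Of the regulators, which keep complement off the body's own cells, Serping1 and Clu went in opposite directions at 1 month. Serping1 encodes the C1 inhibitor and had 152, 272 and 816 CPM in WT, against 486, 715 and 1741 CPM in KO. The batch 3 library was the highest of each genotype, so the groups overlapped, and within batches the difference was 1.53 and 1.09. Its log2 ratio was 1.31 (standard error 0.28, edgeR adjusted p 0.0315). Clu, clusterin, an inhibitor of the membrane attack complex, fell from 388 ± 104 to 153 ± 22.4 CPM, by 1.36 on the log2 scale (standard error 0.21, adjusted p 0.00991), with all KO libraries below the WT libraries. At 1 week Clu had been higher in every KO library, with 297 ± 95.3 CPM in WT and 574.5 ± 124 CPM in KO (log2 ratio 1.02, SE 0.32, adjusted p 0.212), and its interaction was -2.37 (standard error 0.39, adjusted p 0.0879). The values of Cr1l, the rodent membrane regulator Crry, were 0.77 at 1 week and 0.32 at 1 month, and those of Cd55 1.10 and -1.27 (adjusted p 0.0620 at 1 month). The call of Serping1 was lost without WT replicate 1, WT replicate 2, KO replicate 1 or KO replicate 2, and that of Clu without KO replicate 1. Those fits called 45 to 84 genes in all, against 269 with every library kept. Colec11 was called whichever library was left out, and none of the 3 was called without the batch covariate.

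Receptors for complement fragments had a median log2 ratio of -1.03 at 1 month, where 6 of 8 were negative. By edgeR 0 were called, against 2.22% of all genes. At an unadjusted p under 0.05, 1 was higher, against 11.1% of all genes, and 5 were lower, against 10.3%. DESeq2 called 3, C3ar1, Itgax and C1qbp, where it called 6.43% of all genes. In edgeR, batch 2 alone added Cr2 to these 3, where 12.2% of all genes were called. Fitting with no filter added Cr2 and Gpr77 to them, where 1276 of 17990 genes were called. C1qbp was the receptor called with DESeq2's size factors (292 of 12139 genes called), library size alone (561 of 12139) or a mean of at least 20 counts (269 of 11099). C3ar1, the receptor for C3a, had 25.4, 21.3 and 11.6 CPM in WT, against 10.3, 7.84 and 9.05 CPM in KO (log2 ratio -1.08, SE 0.30, edgeR adjusted p 0.0745). C1qbp, a mitochondrial protein that binds C1q, stood at 1.09 (standard error 0.27, adjusted p 0.0505), and Cd93, an endothelial surface protein, at 0.60 (standard error 0.28, adjusted p 0.240). Of the terminal components that build the membrane attack complex, C7 alone was tested, at 1 week, with a value of 0.03 (standard error 0.66). Cfp, properdin, which stabilises the alternative pathway enzyme, had values of 0.63 at 1 week and -0.19 at 1 month.

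**Figure D5:**
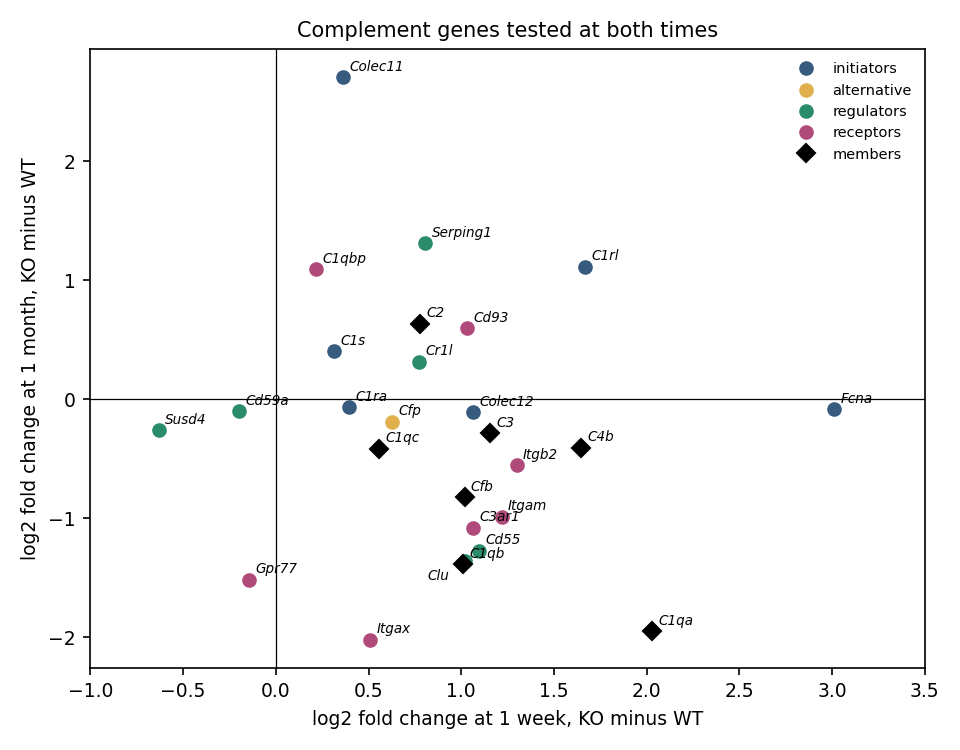
Log2 ratio between KO and WT at 1 week (x axis) and 1 month (y axis) for the 7 members (black diamonds) and 20 of the 21 other complement genes tested at both times, coloured by role. C1qa lies at 2.03 and -1.95, and Colec11 at 0.36 and 2.70.

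The genes most like each member were found by the root mean square difference between log2 CPM profiles over the 12 libraries, each centred within its time. Candidates were 10406 genes tested at both times with a mean of at least 5 CPM, and the members were left out. For C1qa the 3 nearest included Ptpro, a receptor phosphatase (0.41), and Csf1r (0.43), against a spread of C1qa itself of 1.08. For C1qb they were Ifi27l2a (0.28), Cyth4 (0.34) and Runx3 (0.34), and for C1qc they were Ms4a4d (0.33), the chemokine Pf4 (0.35) and Hs3st1 (0.38). The 3 chains shared none of these genes, and as members they could not be listed for each other. Lists of 3 genes do not tell how alike the chains are. C4b was nearest to Wisp1 (0.27), the collagen gene Col3a1 (0.32) and Stx2 (0.32). C2 was nearest to Gpsm1 (0.21), Tmem204 (0.25) and Chst1 (0.26), C3 had Cmklr1 (0.28) and Smarcd3 (0.29) among its 3 nearest, and Cfb was nearest to the chaperone Hspa5 (0.24), Ifitm3 (0.24) and Vim (0.27). Among the 21 pairs of members, C1qb and Cfb were closest (0.28) and C1qa and C1qc furthest apart (1.54). These distances describe profiles that share libraries, depth and batches.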

How the data were processed

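The deposited tables hold raw counts per gene of QuantSeq libraries, which read the 3′ ends of polyadenylated transcripts in sense orientation, and the labels' protocols give the strand-aware setting of HTSeq. The submitters' processing notes name Bowtie, TopHat, HTSeq, DESeq2 and mm10; versions and gene annotation are not given in the sources used here. Replicates were not pooled and were numbered in accession order. The title and library name of WT replicate 3 of 1 month carry different identifiers, and its column was matched by the library name.

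The 7 members, the gene lists and the tests were chosen with earlier results of these data known. Counts were tested across all genes with edgeR 4.0.16 (R 4.3.3): TMM, filterByExpr, robust quasi-likelihood fits, two-sided, with an adjusted p of 0.05. Each time was fitted alone, with batch as a covariate at 1 month, and the interaction used all 12 libraries with batch. A standard error is the absolute log2 fold change over the square root of F. Log2 CPM used a prior count of 2, and differences within batches are of such values. A floor of 3 counts was 0.324 to 0.587 CPM, which covers counting error only. Lists (initiators, alternative, terminal, regulators and receptors of complement, cell type markers, inflammation genes, class III neighbours) are described by counts and medians. Genes were named from the called genes and the 3 of highest mean CPM in each list; Cd163, Cd14, Emr1, Cd68, Tyrobp, Cd55, Itgax, Cr2 and Gpr77 were chosen after their values were seen. Some genes that these rules name are not reported here. Positions come from GENCODE M21 and promoters from RefSeq. Older symbols were matched through RefSeq synonyms. On simulated counts with 200 genes changed 4-fold, 34 were recovered with 4 false calls at 1 week (12544 genes), 189 with 19 at 1 month (11978 genes) and 33 with 1 in the interaction (12943 genes). The simulated counts held no batch effect and no outlying library, and the changed genes were drawn from those of higher mean CPM. These figures therefore do not give the power or error of the fits of the real counts. Alternatives were DESeq2 1.42.0, other scaling and filters, non-robust dispersions, no batch term, batch 2 alone, and leaving out each library.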

Additional observations from a re-analysis of the deposited data

How the results depend on the processing

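No paired analysis was possible because the labels carry no replicate numbers. At 1 week DESeq2 called 2 members (C1qa, C4b) and 2 other complement genes in place of 0 and 0; leaving out single libraries gave 0 to 1 members and 0 to 2 other genes. At 1 month the 2 members called became 0 without the batch covariate and 0 to 3 when a library was left out; C1qa and C1qb were both called under the other 7 alternatives. Without the covariate C1qa was -2.09 (adjusted p 0.29) and C1qb -1.43 (0.341). The 3 other complement genes became 11 with no filter, 7 under DESeq2, 0 without batch, 8 in batch 2 alone, and 1 to 8 with a library left out. In the interaction 0 members became 2 with no filter and 4 under DESeq2, and 0 to 3 with a library left out. Signs reversed when single libraries were left out: C1qc at 1 week ranged from -1.01 to 1.02, C3 at 1 month from -0.55 to 0.022, and in the interaction C1qc from -1.46 to 0.60 and C2 from -0.54 to 0.41. Over all genes, 8 calls at 1 week became 883 under DESeq2, 320 without KO replicate 3, 62 with no filter and 56 without KO replicate 1, and 269 at 1 month became 731 under DESeq2, 1276 with no filter, 1474 in batch 2 alone and 0 without batch (919 at an unadjusted p under 0.05). Leaving out single libraries gave 0 to 320 and 45 to 1522. The 0 calls of the interaction became 836 under DESeq2, 137 with no filter and up to 440 with a library left out. Library size alone shifted the median log2 fold change at 1 month by 0.22 and called 561 genes, 456 of them higher, against 121 higher of 269; C1qa was -1.71 and C1qb -1.14 there. The causes were not tested.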

Other observations

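Inflammatory and acute phase genes, with which complement genes often rise, were mostly near the floor of detection. Of 16 in the tables, 4 were tested at each time. By edgeR 0 were called, against 0.0627% of all genes at 1 week and 2.22% at 1 month. At an unadjusted p under 0.05 there were 0 at 1 week, where 10.5% of all genes were higher. At 1 month there were 2, each higher, against 11.1% of all genes. Saa1, Saa2, Cxcl1, Cxcl2 and Ptx3 had at most 3 counts in any library. Irf1, a transcription factor of interferon signalling, had a log2 ratio of KO to WT of 1.08 (edgeR adjusted p 0.0518) at 1 month, and Nfkbia, an NF-kB inhibitor, 0.82 (adjusted p 0.202). At 1 week these were 0.12 and -0.51.

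Genes beside C2, Cfb and C4b in the class III region of the MHC were read from the same fits. Of 8 neighbours, 7 were tested, with medians of 0.27 at 1 week and -0.26 at 1 month. By edgeR 0 were called at either time, against 0.0627% and 2.22% of all genes. The genotypes overlapped for each neighbour. Over all genes, every KO library was above every WT library for 12.4% at 1 week, and below for 6.45% at 1 month. At an unadjusted p under 0.05 there were 0 at 1 week and 2 at 1 month, each lower, against 10.3% of all genes.

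Cfd, adipsin, a complement protease made mainly by fat cells, had 465 counts in KO replicate 1 of 1 month and at most 43 in any other library.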
